A study of Mus musculus with 22 samples.

Results

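In livers of adiponectin-knockout mice, the transcript of Tff3 took either a very low or a very high level at 3 times of day, and the livers on either side of that gap were compared here across all transcripts. Each liver had its own Clariom S array, a microarray that reads 1 value per transcript cluster, and all values below are on a log2 scale, where 1 unit is a doubling. Times are zeitgeber times (ZT), the hours since the lights came on. At ZT6, ZT14 and ZT22 together there were 11 arrays, of the 22 in the series. The livers were chosen by their own Tff3 values: arrays above 8 were called Tff3-high (5 arrays: ZT6b, ZT6c, ZT14b, ZT14d and ZT22a) and those below 6 were called Tff3-low (6 arrays: ZT6a, ZT14a, ZT14c, ZT22b, ZT22c and ZT22d). The classes therefore stood 2 to 1 at ZT6, 2 to 2 at ZT14 and 1 to 3 at ZT22.

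Both classes were male mice, 3 to 8 months old, that carried the same global knockout of Adipoq, the gene of the fat-cell hormone adiponectin. The labels give the line as B6;129-Adipoqtm1Chan/J on a C57BL/6J background. The mice were housed in groups with 12 h of light a day and free chow, and tissues were collected 4 h apart. No label sets the classes apart at a given time. Wild-type mice were not analysed here, so no value below measures an effect of losing adiponectin. The classes come from a measured gene and not from a treatment, and Tff3 itself was given no test. Adipoq, the targeted gene, read 3.58, 3.61, 4.69, 3.63 and 3.68 in the Tff3-high livers, against 3.33 to 4.39 with a median of 3.94 in the Tff3-low livers. The lower quartile of single arrays lay between 3.67 and 3.91, so those values are near the background, and they check the genotype little because liver makes little adiponectin.

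Tff3 encodes trefoil factor 3, a small secreted peptide that is best known from the mucus of intestinal goblet cells and from epithelial repair. Liver is the organ that clears drugs and steroids through cytochrome P450 enzymes, makes glucose and ketones in fasting, and handles amino acid nitrogen. Hormones such as growth hormone, glucagon, insulin and glucocorticoids set many of these programmes, several of them differently in male and female animals, and the circadian clock times them over the day.

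Tff3 had a level of 10.35 and 11.60 at ZT6 (ZT6b, ZT6c), of 13.26 and 13.63 at ZT14 (ZT14b, ZT14d) and of 11.42 at ZT22 (ZT22a). In the Tff3-low livers it ran from 2.49 to 3.84. The 11 arrays of ZT2, ZT10 and ZT18 held no high value, with levels between 2.31 and 4.73. The gap between the lowest Tff3-high array (10.35) and the highest Tff3-low one (3.84) was left empty by every array, so the thresholds of 8 and 6 divided the arrays in the same way that any pair of limits inside the gap would.

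**Figure D1:**
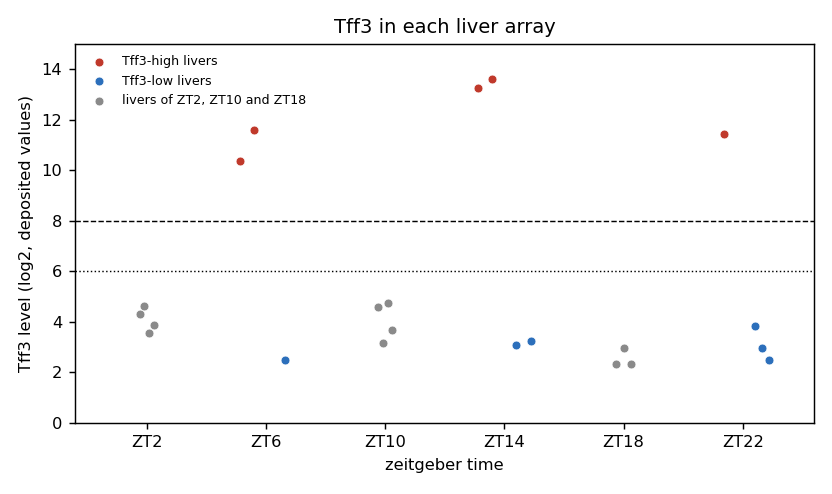
Level of Tff3 (log2, vertical axis) in each of the 22 liver arrays by zeitgeber time (horizontal axis), 1 point per array. The 5 Tff3-high arrays lie between 10.35 and 13.63, above the dashed limit at 8, and the others lie between 2.31 and 4.73, below the dotted limit at 6.

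The other trefoil genes showed no such step. Tff1 measured 3.68, 3.60, 2.79, 3.87 and 3.46 in the Tff3-high livers, against 3.61 to 4.09 (median 3.78) in the Tff3-low livers. Tff2 read 4.02, 4.15, 3.90, 3.57 and 3.63 in Tff3-high livers and 3.72 to 4.40 (median 3.98) in Tff3-low livers. Both lie near the background, where a change could hardly be seen, and neither passed the test (limma, adjusted p = 0.428 for Tff1 and 0.548 for Tff2). Of the 10 measured genes that lie nearest to Tff3 on its chromosome, 0 passed. As 2.10% of all named genes did, that count says little, and several of the 10 also lay near the background. Pde9a, the most highly expressed of them, had a difference of -0.71 ± 0.20 (adjusted p = 0.0838).

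The tissue label was checked against markers of liver and of other tissues that make trefoil peptides or secretions. The mean of 8 hepatocyte markers lay between 18.45 and 18.57 in Tff3-high livers and between 18.44 and 18.54 in Tff3-low livers, and 0 of them were called. The mean of 9 goblet cell markers ran from 3.96 to 4.30 in Tff3-high livers, against 4.09 to 4.23 in Tff3-low livers, and the goblet cell genes Agr2 and Clca1 stayed at or below the lower quartile in all 11 arrays. For 9 gastric and gallbladder markers the means were 3.55 to 3.99 in Tff3-high livers and 3.76 to 3.99 in Tff3-low livers, and for 10 pancreatic acinar markers 4.28 to 4.65 in Tff3-high livers and 4.29 to 4.56 in Tff3-low livers. None of these 3 lists had a called member, beside 2.10% called over all named genes. Among the other markers, Tm4sf4 (cholangiocytes), Lyve1 (sinusoidal endothelium), Colec11 (stellate cells), Apoa4 (enterocytes and also hepatocytes) and Fabp4 (adipocytes) were higher in Tff3-high livers, while Cd163 (Kupffer cells) and Lipe (adipocytes) were lower. Each was the only member of its list called in that direction, and their part in the results below was not tested. Tm4sf4 had a difference of 1.19 ± 0.20 (adjusted p = 0.00512). Colec11 (adjusted p = 0.0414), Lipe (0.0349) and Fabp4 (0.017) lost their calls in 8, 8 and 4 of the 11 fits without 1 array, with adjusted p up to 0.142, 0.16 and 0.0667. The mean of 12 stellate markers ran from 7.26 to 8.03 in Tff3-high livers and from 6.93 to 7.56 in Tff3-low livers.

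With time held constant, 466 of 22205 features other than Tff3 passed an adjusted p of 0.05 (2.10%; limma with Benjamini-Hochberg adjustment). Of these, 313 were higher (1.41%) and 153 lower (0.689%) in the Tff3-high livers, and 266 differed by at least 2-fold, 185 upwards and 81 downwards. The median size of a called difference was 1.07, and the median difference of all features was -0.01. An unadjusted p under 0.05 was reached by 3292 features. The sign was the same at ZT6, ZT14 and ZT22 for 463 of the 466. As the 466 were called from these same arrays, that agreement follows in part from their choice. In 435 of the 466, the Tff3-high arrays also lay wholly on the called side of the Tff3-low arrays of the same time, at each time. That pattern on its own was shown by 1865 features (8.40%), 1057 higher (4.76%) and 808 lower (3.64%), and over named genes by 4.88% upwards and 3.48% downwards. Of the features above the median level 3.40% were called, against 0.793% of the others. For 122 of the called features, all 5 Tff3-high arrays were also outside the range of the 11 arrays of ZT2, ZT10 and ZT18. The same count was not made over all features, and the called ones had been chosen for a difference, so the 122 are only a description.

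The 4 ZT14 arrays, where the classes were balanced and Tff3 was highest, weighed most in this count. Without the ZT14 arrays 61 features were called, without those of ZT22 222, and without those of ZT6 355. Leaving out a single array gave 265 calls without ZT14b, 279 without ZT14d, 301 without ZT14a and 304 without ZT6a, and between 324 and 479 for the others. Of the 466, 164 were called in every one of those 11 fits. The called differences had a median size of 1.03 at ZT6, 1.22 at ZT14 and 0.89 at ZT22. Each time alone has 1 array in a class or 2 against 2, so each array counts for much.

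Cyp17a1, the steroid 17-alpha-hydroxylase of androgen synthesis, which female mouse liver also expresses more than male, had the largest rise of a named gene. It measured 9.65, 11.30, 10.82, 11.31 and 11.41 in Tff3-high livers, against 6.90 to 8.10 (median 7.08) in Tff3-low livers. The classes did not overlap, and the other 11 arrays stayed between 5.39 and 8.20. The difference was 3.81 ± 0.30 (SE), or 14.1-fold (adjusted p = 3.79e-06). Mmd2, a member of the receptor family that also holds the adiponectin receptors, was higher by 3.45 ± 0.48 (adjusted p = 0.00101). Its arrays read 5.66, 8.84, 8.12, 7.85 and 8.39 in Tff3-high livers, against 3.89 to 5.74 in Tff3-low livers, so that ZT6b overlapped with the highest Tff3-low array of another time.

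**Figure D2:**
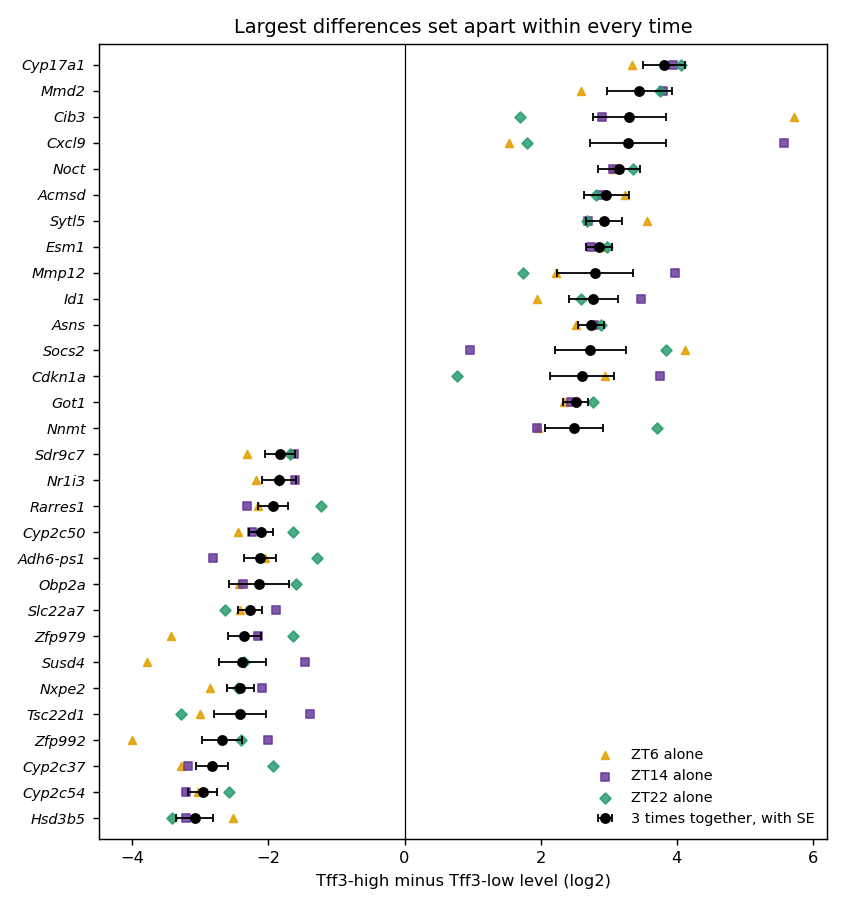
Difference between Tff3-high and Tff3-low livers (log2, horizontal axis) for the 15 largest rises and the 15 largest falls among named genes that were called and set apart within every time. Black points and bars give the fitted difference with its SE, and coloured marks give the difference at ZT6, ZT14 and ZT22 alone, all of them on the same side of 0 as the fitted one. The fitted rises run from 2.50 (Nnmt) to 3.81 (Cyp17a1) and the falls from -1.83 (Sdr9c7) to -3.08 (Hsd3b5).

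Genes of amino acid and nicotinamide handling stood among the largest rises. Asns makes asparagine from aspartate and is a target of the amino acid response factor ATF4. It read 9.96, 10.65, 10.69, 10.71 and 10.64 in Tff3-high livers, against 7.5 to 8.17 (median 7.76) in Tff3-low livers, a gap with no overlap and a difference of 2.75 ± 0.19 (adjusted p = 1.44e-06). Got1, the cytosolic aspartate aminotransferase, measured 15.17, 15.01, 15.41, 15.15 and 16.14 in Tff3-high livers and 12.73 to 13.69 (median 12.94) in Tff3-low livers. Its difference of 2.52 ± 0.18 (adjusted p = 1.52e-06) also placed every Tff3-high array above the highest of the other times (13.75). Acmsd, which steers tryptophan breakdown away from NAD, was higher by 2.97 ± 0.33 (adjusted p = 0.000145). Nnmt, which methylates nicotinamide, was higher by 2.50 ± 0.43 (adjusted p = 0.00542), a call lost without ZT22a (adjusted p = 0.0517). Chka, a choline kinase, was higher by 1.33 ± 0.26 (adjusted p = 0.011), a call lost without ZT6a (adjusted p = 0.0812).

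The lists around these genes held few other called members. Of 26 ATF4 targets, 3 were higher (Asns, Atf5 and Fgf21) and 0 lower, with a list median of 0.00, against 1.43% higher and 0.677% lower over all named genes, whose median was also 0.00. Atf5, itself a stress-response factor, was higher by 1.24 ± 0.26 (adjusted p = 0.0212), and its adjusted p without ZT6a, ZT14a, ZT14b or ZT14d lay between 0.0617 and 0.0755. Of 24 genes of amino acid catabolism only Got1 was called, although 8 were set apart upwards within every time. Of 7 urea cycle genes 0 were called, with a list median of 0.32 and 2 set apart upwards. None of the 20 measured genes of the unfolded protein response, which also feeds into ATF4, was called, with a median of -0.27 and 2 set apart downwards. Over all named genes 4.88% were set apart upwards and 3.48% downwards. As only 2.10% were called, counts of 0 in such lists say little.

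The start of Asns is shown because its window holds the core of the amino acid response element (letters TGATGNAA, either strand, N any base), to which ATF4 is known to bind. The sequence is from RefSeq (GRCm38.p6, chr6:7693160-7693459, minus strand), from 250 bases before to 50 bases after the start, with the match in capitals beginning 23 bases before it. Below it stands Btg2, an antiproliferative immediate early gene (chr1:134079106-134079405, minus strand). Its capitals mark a cAMP response element (TGACGTCA, the same on both strands) that begins 166 bases before the start.
Asns: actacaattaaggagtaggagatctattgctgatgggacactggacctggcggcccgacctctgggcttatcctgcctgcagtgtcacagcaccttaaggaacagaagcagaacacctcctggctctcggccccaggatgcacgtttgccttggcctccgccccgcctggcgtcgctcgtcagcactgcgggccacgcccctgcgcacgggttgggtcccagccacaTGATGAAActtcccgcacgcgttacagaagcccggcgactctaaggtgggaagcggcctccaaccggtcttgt
Btg2: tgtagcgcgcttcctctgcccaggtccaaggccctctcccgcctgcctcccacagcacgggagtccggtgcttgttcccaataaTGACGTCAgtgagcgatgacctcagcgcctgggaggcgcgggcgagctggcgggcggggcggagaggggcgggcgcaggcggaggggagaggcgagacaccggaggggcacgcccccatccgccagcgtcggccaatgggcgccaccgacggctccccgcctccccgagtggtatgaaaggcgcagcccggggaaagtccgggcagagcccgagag

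Among 284 start windows of genes higher in Tff3-high livers, 13 held the full cAMP response element (4.58%). It was in 0 of 144 windows of the lower genes and in 442 of 19143 windows of all named genes (2.31%). The ATF4 core was in 3.17% of the windows of higher genes, 4.17% of those of lower genes and 3.38% of all. The E-box CACGTG was in 7.75%, 8.33% and 8.11% in the same order, and the STAT element TTCNNNGAA in 4.58%, 7.64% and 7.75%. Tff3 is named only, with no sequence shown. These shares describe the windows and were not tested.

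Targets of glucagon and cAMP, the fasting signal to liver, were higher in 5 of 15 measured members (Sik1, Igfbp1, Pck1, Pde4b and Fgf21) and lower in 1 (Cited2), with a list median of 0.74. Over all named genes 1.43% were higher and 0.677% lower. Sik1, a kinase induced by cAMP, measured 8.41, 9.02, 9.85, 10.17 and 10.71 in Tff3-high livers, against 6.86 to 8.95 (median 7.99) in Tff3-low livers. The classes overlapped between times but not within one, and the difference was 2.07 ± 0.23 (adjusted p = 0.000115). The other 11 arrays lay between 7.52 and 9.84 for Sik1, between 16.00 and 17.99 for Pck1 and between 6.00 and 12.49 for Igfbp1, so they reached into the Tff3-high range of each. Pck1, the rate-setting enzyme of gluconeogenesis, read 17.17, 17.92, 18.03, 18.09 and 17.29 in Tff3-high livers and 15.13 to 16.79 (median 16.18) in Tff3-low livers, a difference of 1.38 ± 0.22 (adjusted p = 0.00346). It was the only called gene of 15 in gluconeogenesis and glycogen. Igfbp1, a secreted IGF carrier that insulin represses, was higher by 2.02 ± 0.38 (adjusted p = 0.0099). Its arrays ran 10.90, 11.07, 5.82, 6.42 and 9.73 in Tff3-high livers and 4.43 to 8.84 in Tff3-low livers, with the ZT14 arrays low in both classes, and the adjusted p was 0.0674 without ZT6a and 0.0543 without ZT22a. Fgf21, a hepatokine, had means of 4.59 in Tff3-high livers and 3.58 in Tff3-low livers, close to the background.

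The insulin and IGF axis had 5 of 20 members higher and 0 lower (1.43% and 0.677% over all named genes): Igfbp1, Igfbp2, Igfbp3, Sik1 and Socs2. Igfbp2, another IGF carrier, was higher by 1.30 ± 0.20 (adjusted p = 0.00298). Socs2, which growth hormone induces and which dampens its signal, was higher by 2.73 ± 0.52 (adjusted p = 0.0103). It read 11.99, 12.19, 9.63, 9.27 and 11.90 in Tff3-high livers, against 6.66 to 9.10 (median 8.24) in Tff3-low livers, without overlap, while the other 11 arrays ran from 6.67 to 12.31. The call was lost without ZT6a (adjusted p = 0.0773) or ZT22a (adjusted p = 0.0895). Of 17 glucocorticoid targets 3 were higher (Sgk1, Pck1 and Fgf21) and 0 lower, with a median of 0.43, beside the same shares over all named genes. Sgk1, a kinase of salt and stress responses, was higher by 2.02 ± 0.36 (adjusted p = 0.00723). None of the 15 adiponectin receptor and AMPK genes was called, a count near the shares over all named genes. The differences of the receptor genes were 0.56 ± 0.17 for Adipor1 (adjusted p = 0.12) and -0.58 ± 0.19 for Adipor2 (adjusted p = 0.153).

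Noct, which encodes nocturnin, a rhythmic phosphatase of NADPH, measured 11.07, 8.92, 12.56, 12.57 and 9.65 in Tff3-high livers, against 6.05 to 9.85 (median 6.80) in Tff3-low livers. It was higher by 3.06 at ZT6, 3.06 at ZT14 and 3.36 at ZT22, and 3.15 ± 0.31 in the joint fit (adjusted p = 3.79e-05). Id1, an inhibitor of basic helix-loop-helix factors, read 8.76, 10.35, 12.13, 11.13 and 10.47 in Tff3-high livers and 7.03 to 8.57 (median 7.96) in Tff3-low livers, without overlap, a difference of 2.78 ± 0.36 (adjusted p = 0.000709). Esm1, a proteoglycan secreted by endothelium, read 5.47, 6.11, 6.47, 7.26 and 6.73 in Tff3-high livers. In Tff3-low livers it was near the background, at 2.89 to 4.14 (median 3.82), and the difference of 2.86 ± 0.19 had the lowest adjusted p of the named genes shown here (1.00e-06). The difference was 2.90 at ZT6, 2.74 at ZT14 and 2.98 at ZT22. In bulk liver, more cells of a type and more RNA per cell cannot be told apart.

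**Figure D3:**
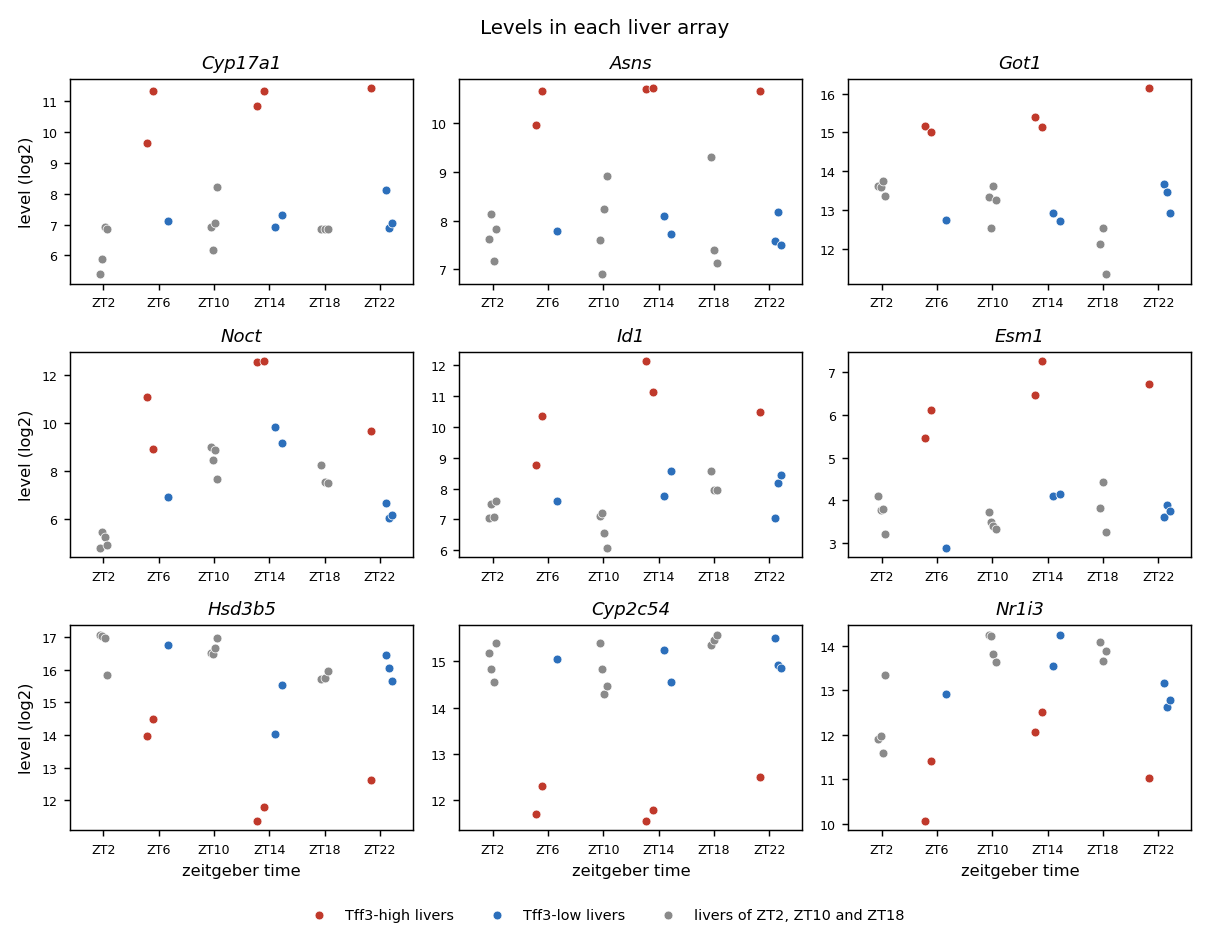
Levels (log2, vertical axes) of 6 genes higher and 3 genes lower in Tff3-high livers, in each of the 22 arrays by zeitgeber time (horizontal axes), 1 point per array. For Cyp17a1, Asns, Got1, Id1 and Esm1 each Tff3-high array lies above all Tff3-low arrays, and for Hsd3b5, Cyp2c54 and Nr1i3 each lies below all Tff3-low arrays of its time. Noct overlaps between times but not within them.

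Drug metabolism had more lower members than any other list counted. Of 27 measured genes controlled by the receptors CAR, PXR and AHR, 8 were lower and 2 higher, against 0.677% lower and 1.43% higher over all named genes, and the list median was -0.24. The 8 were the P450 genes Cyp2c54, Cyp2c37, Cyp2c50, Cyp1a1, Cyp1a2 and Cyp2b9, the retinaldehyde dehydrogenase Aldh1a1 and Nr1i3, the gene of CAR itself. Cyp2c54 read 11.70, 12.32, 11.56, 11.79 and 12.51 in Tff3-high livers, against 14.54 to 15.49 (median 14.98) in Tff3-low livers. The classes were over 2 log2 units apart at their nearest arrays, every array of the other times lay at 14.29 or above, and the difference was -2.96 ± 0.21 (adjusted p = 1.44e-06). Cyp2c37 measured 11.09, 11.31, 11, 11.79 and 12.55 in Tff3-high livers and 14.29 to 14.59 (median 14.57) in Tff3-low livers, a difference of -2.83 ± 0.23 (adjusted p = 5.44e-06). Cyp2c50 measured 14.71, 14.76, 14.67, 14.92 and 15.33 in Tff3-high livers, against 16.79 to 17.19 (median 17.06) in Tff3-low livers, a difference of -2.12 ± 0.18 (adjusted p = 6.19e-06).

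The CYP2C family split. These 3 genes lie beside each other on chromosome 19 and were lower, Cyp2c55 was higher by 1.28 ± 0.24 (adjusted p = 0.00996), and the other 10 measured CYP2C genes were not called. Probes of such close relatives may share signal, so the values of single family members are uncertain. The start windows of Cyp2c37 (chr19:39992174-39992473, plus strand) and Cyp2c50 (chr19:40089429-40089728, plus strand) are shown because these neighbours fell together. Their capitals mark the longest run of bases that both share, 63 bases, which begins 23 bases before the start in Cyp2c37 and 18 bases before it in Cyp2c50. No match to the 4 motifs above was in either window.
Cyp2c37: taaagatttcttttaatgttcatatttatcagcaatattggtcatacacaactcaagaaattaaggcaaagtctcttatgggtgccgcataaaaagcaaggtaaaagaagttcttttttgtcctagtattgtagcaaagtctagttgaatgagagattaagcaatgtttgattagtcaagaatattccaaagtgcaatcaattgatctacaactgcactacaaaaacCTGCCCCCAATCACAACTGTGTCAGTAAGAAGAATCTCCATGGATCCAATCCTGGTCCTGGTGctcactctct
Cyp2c50: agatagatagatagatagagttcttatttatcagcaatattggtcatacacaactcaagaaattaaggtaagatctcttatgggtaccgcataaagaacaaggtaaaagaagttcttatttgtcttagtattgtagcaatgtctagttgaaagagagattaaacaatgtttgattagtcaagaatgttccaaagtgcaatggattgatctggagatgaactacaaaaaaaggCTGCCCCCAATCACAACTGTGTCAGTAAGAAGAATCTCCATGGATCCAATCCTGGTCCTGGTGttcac

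Nr1i3 read 10.06, 11.40, 12.06, 12.50 and 11.02 in Tff3-high livers, against 12.63 to 14.23 (median 13.04) in Tff3-low livers, a difference of -1.84 ± 0.25 (adjusted p = 0.000875). The classes did not overlap, but the range of the other 11 arrays (11.59 to 14.25) reached into that of the Tff3-high ones. Cyp2b10, the standard target of CAR, was higher by 2.74 (adjusted p = 0.00846), although not set apart at every time. Its relative Cyp2b9 was lower (difference -1.17, adjusted p = 0.00825), at mean levels of 3.74 in Tff3-high livers and 4.81 in Tff3-low livers. Cyp1a2 was lower (-1.23 ± 0.24, adjusted p = 0.0125), a call lost without ZT6a (adjusted p = 0.0903).

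Genes that differ between the sexes in mouse liver, which growth hormone pulses set, were called in both lists. Of 23 male-biased genes 4 were lower (Hsd3b5, Susd4, Slco1a1 and Cyp2d9) and 0 higher. The shares over all named genes were 0.677% lower and 1.43% higher. Of 26 female-biased genes 5 were higher (Cyp17a1, Cyp2b10, Abcd2, Nipal1 and Rtn4) and 1 lower (Cyp2b9), with a list median of 0.02. Hsd3b5, a steroid reductase of male liver, read 13.96, 14.50, 11.36, 11.79 and 12.63 in Tff3-high livers, against 14.04 to 16.75 (median 15.85) in Tff3-low livers. The classes overlapped only across times, at ZT6c and ZT14a, and the difference was -3.08 ± 0.27, or 8.48-fold lower (adjusted p = 1.10e-05). Susd4, a complement regulator, was lower (-2.38 ± 0.35, adjusted p = 0.0016). Abcd2, a peroxisomal fatty acid transporter, read 12.71, 12.45, 11.07, 10.73 and 9.81 in Tff3-high livers and 7.94 to 9.59 (median 9.14) in Tff3-low livers, a difference of 1.93 ± 0.33 (adjusted p = 0.00547). The remaining 19 male-biased and 20 female-biased genes did not pass the test.

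Transporters were called in both directions. Among 26 genes of bile acid synthesis and transport, the uptake carriers Slco1a1, Slco1b2 and Slc10a1 were lower, and Slc10a2, Slco1a4 and the sterol exporter subunit Abcg5 were higher. These are 3 lower and 3 higher, beside 0.677% and 1.43% over all named genes. Slco1a1 measured 15.29, 15.95, 14.83, 14.85 and 14.85 in Tff3-high livers, against 16.11 to 16.58 (median 16.25) in Tff3-low livers, without overlap, and the difference was -1.26 ± 0.17 (adjusted p = 0.00102). Slco1b2 was lower (-0.93 ± 0.17, adjusted p = 0.00902), a call lost without ZT6a (adjusted p = 0.0647). Slc10a2, the apical bile acid carrier of ileum and bile ducts, was higher by 1.84 ± 0.32 (adjusted p = 0.00586), and all 5 Tff3-high arrays (10.49 to 11.96) exceeded the Tff3-low ones (7.94 to 10.08). No gene of bile acid synthesis was among the called members, a count near the shares over all named genes. Of the 26, 6 were set apart downwards within every time, among them Cyp27a1 and Baat of synthesis, and 3 upwards. Over all named genes 3.48% were set apart downwards and 4.88% upwards. Slc22a7, an organic anion carrier, read 5.84, 5.48, 6.03, 5.71 and 5.48 in Tff3-high livers and 7.68 to 8.16 (median 8.07) in Tff3-low livers, a difference of -2.27 ± 0.18 (adjusted p = 3.54e-06).

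Periportal and pericentral genes, which hepatocytes express along the axis from portal to central vein, had list medians on opposite sides of 0. Of 15 periportal genes 4 were higher (Aldh1b1, Apoa4, Etnppl and Pck1) and 0 lower, with a list median of 0.48. The shares over all named genes were 1.43% higher and 0.677% lower, and 3.48% were set apart downwards. Of 17 pericentral genes 1 was lower (Cyp1a2) and 0 higher, with a median of -0.47, while 5 were set apart downwards within every time. Aldh1b1, a mitochondrial aldehyde dehydrogenase, read 9.41, 9.04, 9.15, 9.29 and 10.38 in Tff3-high livers, against 7.12 to 8.03 (median 7.65) in Tff3-low livers, a difference of 1.95 ± 0.22 (adjusted p = 0.000158). Etnppl, which breaks down phosphoethanolamine, was higher by 1.42 ± 0.19 (adjusted p = 0.000869). Apoa4, an apolipoprotein that liver makes more of in fasting and steatosis, was higher by 1.78 ± 0.29 (adjusted p = 0.00389). Cyp2e1, a pericentral P450, had a difference of -0.62 ± 0.15 that missed the threshold (adjusted p = 0.0523).

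**Figure D4:**
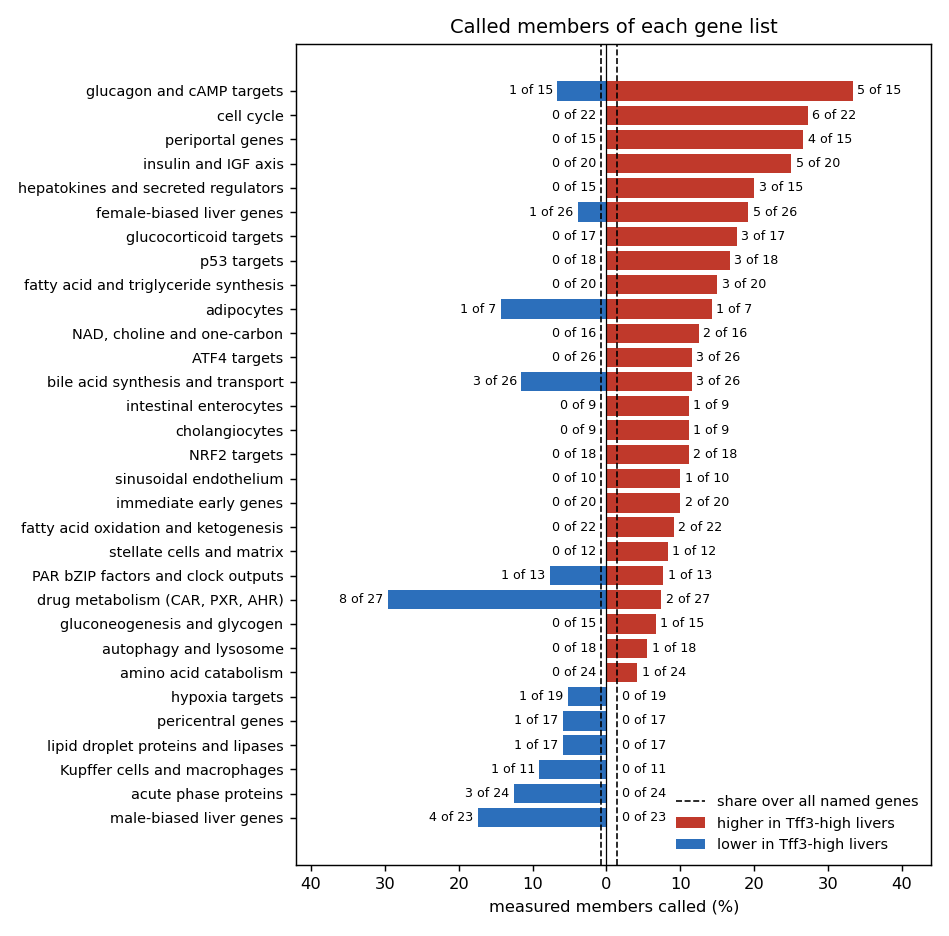
Share of the measured members of each gene list (percent, horizontal axis) that was called higher (right, red) or lower (left, blue) in Tff3-high livers, for the lists with at least 1 called member, with the counts printed beside the bars. Dashed lines mark the shares over all named genes, 1.43% higher and 0.677% lower. Glucagon and cAMP targets reach 5 of 15 to the right, and drug metabolism 8 of 27 to the left.

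Replication and cell cycle genes were higher in 6 of 22 members and lower in 0, with a list median of 0.66. Over all named genes 1.43% were higher and 0.677% lower. All 6 belong to DNA replication: Mcm2, Mcm4, Mcm5 and Mcm6 of the replicative helicase, its clamp Pcna and the ribonucleotide reductase subunit Rrm1. Mcm6 read 7.26, 6.6, 7.89, 8.77 and 7.96 in Tff3-high livers, against 5.45 to 6.6 (median 6.20) in Tff3-low livers, so that the lowest Tff3-high array equalled the highest Tff3-low one, and the difference was 1.70 ± 0.28 (adjusted p = 0.0039). Rrm1 was higher by 1.28 ± 0.20 (adjusted p = 0.00343) and Mcm2 by 1.27 ± 0.21 (adjusted p = 0.00389). Pcna passed narrowly (adjusted p = 0.04995) and was not set apart at every time. Of 18 p53 targets 3 were higher: Cdkn1a, Btg2 and Ccng1. Cdkn1a, the cell cycle inhibitor p21, was higher by 2.61 ± 0.47 (adjusted p = 0.00724). It read 7.27, 5.11, 8.89, 9.02 and 9.53 in Tff3-high livers and 3.24 to 9.33 in Tff3-low livers, so the classes overlapped widely and parted only within times. Btg2 was higher by 1.96 ± 0.26 (adjusted p = 0.000709) and Jun by 1.58 ± 0.24 (adjusted p = 0.00231), the called pair of 20 immediate early genes. Ccng1 had a difference of 0.75 ± 0.18 and its call (adjusted p = 0.0443) was lost in 9 of 11 fits without 1 array, all but those without ZT6c or ZT22d (adjusted p up to 0.148).

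The called genes of lipid synthesis were those that desaturate and elongate polyunsaturated fatty acids. In the list of fatty acid and triglyceride synthesis, with 20 measured members, Fads1, Fads2 and Elovl5 were higher and 0 lower, with a list median of 0.00. Over all named genes 1.43% were higher and 0.677% lower. Fads2, the delta-6 desaturase, read 18.23, 18.35, 18.98, 18.92 and 18.53 in Tff3-high livers, against 17.21 to 17.81 (median 17.42) in Tff3-low livers, a difference of 1.07 ± 0.15 (adjusted p = 0.00149). Fads1, its neighbour and the delta-5 desaturase, was higher by 0.99 ± 0.17 (adjusted p = 0.0044). Elovl5, the elongase of the same path, was higher by 0.91 ± 0.20 (adjusted p = 0.0248), with an adjusted p of 0.0588 to 0.0973 without ZT6a, ZT22a or any 1 of the ZT14 arrays. Cpt1a, which admits fatty acids to mitochondria, was called (0.76 ± 0.17, adjusted p = 0.0318) but lost the call in 8 of the 11 fits without 1 array, all but those without ZT6c, ZT14c or ZT22d (adjusted p up to 0.129). None of the 18 cholesterol synthesis genes was called, a count near the shares over all named genes.

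Gstm3, a glutathione transferase and target of the oxidative stress factor NRF2, read 16.34, 16.29, 16.61, 16.35 and 16.06 in Tff3-high livers, against 13.91 to 15.11 (median 14.58) in Tff3-low livers, without overlap, a difference of 1.85 ± 0.22 (adjusted p = 0.000269). It and Cbr3 were the called members of 18 NRF2 targets, of which 8 were set apart upwards. Over all named genes 1.43% were called higher and 0.677% lower, and 4.88% were set apart upwards. Of 24 acute phase genes 3 were lower (Saa4, Il1r1 and Orm3) and 0 higher. Saa4, the constitutive serum amyloid A, was lower (-1.05 ± 0.18, adjusted p = 0.00546), and so was the interleukin-1 receptor gene Il1r1 (-0.84 ± 0.17, adjusted p = 0.0171), a call lost without ZT14c, ZT14d or ZT22a (adjusted p 0.0562 to 0.104). None of the 18 interferon-stimulated genes was called, a count near the shares over all named genes. Cxcl9, a chemokine that interferon gamma induces, was higher by 3.29 ± 0.56 (adjusted p = 0.00527). Its arrays read 7.5, 9.14, 12.79, 12.05 and 9.12 in Tff3-high livers, against 6.70 to 7.69 (median 6.95) in Tff3-low livers. The 2 Tff3-high arrays of ZT14 were highest, and the other 11 arrays, at 6.02 to 10.37, reached above 3 of the 5 Tff3-high ones. Lyve1, a hyaluronan receptor of sinusoidal endothelium, was higher by 2.02 ± 0.28 (adjusted p = 0.0011), while the mean of all 10 sinusoidal markers overlapped between Tff3-high livers (9 to 9.43) and Tff3-low livers (8.66 to 9.55). Cd163, a scavenger receptor of Kupffer cells, was lower (-0.91 ± 0.21, adjusted p = 0.0295), a call lost in 7 of 11 fits without 1 array, all but those without ZT6c, ZT14c, ZT14d or ZT22b (adjusted p up to 0.2), and the mean of 11 Kupffer markers was 6.93 to 7.48 in Tff3-high livers and 6.7 to 7.4 in Tff3-low livers.

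Other large falls were in genes with no common list. Zfp992, a zinc finger gene on chromosome 4, read 9.60, 8.68, 10.03, 10.33 and 8.99 in Tff3-high livers and 11.05 to 13.15 (median 11.99) in Tff3-low livers, a difference of -2.68 ± 0.30 (adjusted p = 0.000128). Its measured neighbours Zfp600 and Zfp987 were lower as well, and probes of these near-identical genes may share signal. Across the genome, 19 pairs or runs of neighbouring genes, 40 genes in all, were called in the same direction, with at most 3 genes in a run. Called genes made up 2.10% of all named genes, and no expected number of such runs was computed. Most of the runs hold relatives from the same gene family, whose probes may share signal too. Tsc22d1, a transcriptional regulator, was lower (-2.42 ± 0.38, adjusted p = 0.00333), and so were Nxpe2 (-2.42 ± 0.20, adjusted p = 5.36e-06), Zfp979 (-2.35 ± 0.25, adjusted p = 7.41e-05) and Rarres1 (-1.93 ± 0.22, adjusted p = 0.000153). The fall of the odorant-binding gene Obp2a (-2.14 ± 0.44, adjusted p = 0.0168) lost its call without ZT6a (adjusted p = 0.0791) or ZT14b (adjusted p = 0.0629), and the rise of Mmp12, the macrophage elastase (2.80 ± 0.56, adjusted p = 0.0154), without ZT14b (adjusted p = 0.0555) or ZT14c (adjusted p = 0.0505).

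Of 14 measured genes of the core clock 0 were called and 0 set apart within every time, and the list median was 0.05. Over all named genes 2.10% were called, so a count of 0 is near that share and says little about the clock genes. At ZT6, however, the only Tff3-low array, ZT6a, was further along the day by its clock genes than ZT6b and ZT6c. It lay nearer to the ZT10 mean than both of them in 14 of 16 genes (the core clock genes with Dbp and Tef). Arntl, which encodes the activator BMAL1, read 9.01 and 8.01 in ZT6b and ZT6c, against 7.02 in ZT6a. The repressor gene Per3 read 7.89 and 7.43 in ZT6b and ZT6c, against 9.83 in ZT6a, where the ZT10 mean was 10.36. Bhlhe41 read 5.02 and 5.56 in ZT6b and ZT6c, against 8.08 in ZT6a. At ZT6, therefore, a difference between the classes and a difference in clock time cannot be told apart. Among targets of clock output, Noct was higher and Rgs16 lower (-1.66 ± 0.39, adjusted p = 0.0341), and the call of Rgs16 was lost without the ZT6 arrays (adjusted p = 0.101) and in 6 of 11 fits without 1 array, those without ZT6a, ZT6c, ZT14c, ZT14d, ZT22a or ZT22c (adjusted p 0.0544 to 0.14).

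**Figure D5:**
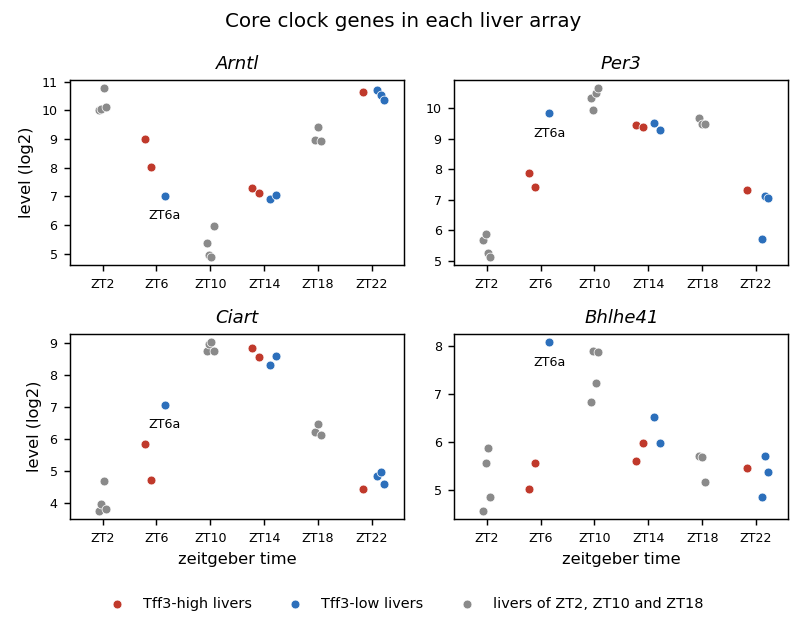
Levels (log2, vertical axes) of the core clock genes Arntl, Per3, Ciart and Bhlhe41 in each of the 22 arrays by zeitgeber time (horizontal axes), 1 point per array. ZT6a, the Tff3-low array of ZT6, lies nearer to the ZT10 arrays than ZT6b and ZT6c do in all 4 genes.

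The gene lists were also counted without the 3 ZT6 arrays. Drug metabolism then had 7 lower and 2 higher, glucagon and cAMP targets 4 higher and 1 lower, the cell cycle 6 higher, periportal genes 4 higher, male-biased genes 3 lower and female-biased genes 4 higher and 1 lower. The insulin and IGF axis had 2 higher members in place of 5, and NRF2 targets 5 in place of 2. Fatty acid oxidation and ketogenesis had 0 higher and 3 lower in place of 2 and 0, and bile acid synthesis and transport 2 higher and 1 lower in place of 3 and 3.

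A count without the 4 ZT14 arrays, chosen after the data were seen, left few called members in any list. Drug metabolism then had 4 lower and 0 higher, male-biased genes 2 lower, periportal genes and the insulin and IGF axis 2 higher each, and glucagon and cAMP targets and female-biased genes 1 higher each. The cell cycle, p53 target, lipid synthesis, acute phase, and bile acid lists had 0 called members. Of the 68 called genes with values here, 27 kept their call in that fit of 7 arrays, among them Cyp17a1, Asns, Got1, Acmsd, Nnmt, Noct, Esm1, Sik1, Socs2, Gstm3, Aldh1b1, Hsd3b5, Cyp2c54, Nr1i3, Slc22a7 and Zfp992. The other 41 did not pass it (adjusted p 0.0565 to 0.524), among them Id1, Pck1, Igfbp1, Igfbp2, Sgk1, Cdkn1a, Btg2, Jun, Mcm2, Mcm6, Rrm1, Fads1, Fads2, Abcd2, Apoa4, Slco1a1, Slc10a2, Mmd2, Lyve1 and Cxcl9.

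Whether the difference itself varied with time was tested by the interaction of class and time. It was called for 3 features (0.0135%), and 1578 had an unadjusted p under 0.05. None of the 466 called features was among the 3. Tgtp2, an interferon-inducible GTPase of T cells and other cells, read 11.98 and 11.01 in the Tff3-high livers of ZT14 and 5.69, 6.19 and 6.59 in those of ZT6 and ZT22, against 5.62 to 6.96 (median 6.54) in Tff3-low livers. Its difference was 5.20 at ZT14, -0.53 at ZT6 and 0.05 at ZT22 (interaction adjusted p = 0.00924). Usp2, a rhythmic ubiquitin protease, had differences of -3.81 at ZT6, 0.74 at ZT14 and -0.72 at ZT22 (interaction adjusted p = 0.0157). Its ZT6 difference rests on ZT6a. The third feature has no symbol. The interferon-inducible GTPase genes Iigp1 and Igtp had the next lowest p with Nrg4, a hepatokine-like growth factor gene (interaction adjusted p = 0.0771 for each). The differences of Iigp1 and Igtp at ZT14 were 2.73 and 3.28 log2 units. Some called genes also had uneven differences, although none of them passed the interaction test. Cxcl9 differed by 1.53 at ZT6, 5.575 at ZT14 and 1.80 at ZT22, and Socs2 by 4.13, 0.965 and 3.84 at the same times. For Cyp17a1, Asns, Got1, Noct, Esm1, Hsd3b5 and Cyp2c54 the interaction had an adjusted p of 0.892 or more.

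After removal of the time means, the first principal component of all features held 28.4% of the variance. The Tff3-high arrays scored between 15.31 and 36.65 on it, against -40.86 to -0.57 for the Tff3-low arrays. Tff3, which set the classes, was among the features. Removing the time means also makes the scores of each time cancel out. ZT6a therefore had to lie opposite the mean of ZT6b and ZT6c, and ZT22a opposite the mean of the other ZT22 arrays. The parting of the classes within those times is thus partly forced and was not tested. That the Tff3-high arrays took the same side at every time does not follow from the centring.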

How the data were processed

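The deposited table holds 1 log2 value per transcript cluster and array. TRIzol extraction and the WT Plus kit, with 100 ng RNA each, preceded hybridisation to Clariom S arrays, per the labels. The base of the log was read from the range of the values. How the authors normalized the arrays, with which software and genome build, is not stated in the labels or the table, though near-equal medians and quartiles show that some scaling took place. Arrays have no read depth, and their number limits the precision. Each array was taken as 1 mouse, and the p-values reflect spread among these mice only.

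Of 22206 features 19572 had 1 symbol, 0 several and 2634 none. Where a gene had several features, the brightest on average stood for it. Time and class were fitted to the 11 arrays with limma 3.58.1 in R 4.3.3 (lmFit, eBayes) on all features, with Benjamini-Hochberg adjustment over them. Levels near the lower quartile cannot be told from background. The members, the 38 function and 15 marker lists and the tests were chosen with earlier results of these data known. Named genes were the 15 largest called and set-apart differences in each direction with a mean of at least 6 in a class, up to 3 genes of lowest p per list, all trefoil and core clock genes, the 5 of lowest interaction p, and Adipoq. Further called list members, CYP2C and zinc finger neighbours and the genes of the closing section were named after their values were seen. In simulated data of this design on 22206 features, 8.96% of 1.5-fold, 61.2% of 2-fold and 98.5% of 4-fold differences were recovered, and 6 of 22006 unchanged features were called. The simulated noise was independent between features, whereas these livers share variation across features, so those rates need not hold for the real data. Alternatives were other normalizations, filters, priors, weights, sample sets, the Tff3 value as covariate, thresholds, single omissions and the letter as a block. Start windows and motif matches come from RefSeq's GRCm38.p6 promoter table, and that assembly served otherwise only for names, chromosomes and neighbours.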

Additional observations from a re-analysis of the deposited data

Results flagged for a closer look

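In 160 groups of 4 arrays (80 genes at ZT14 and ZT22), 12 values stood far from the other 3 arrays of their time by Dixon's test. All were in ZT22a, the only Tff3-high array of ZT22. Most of the genes checked (68 of 80) were called for the difference between the classes, so the place of ZT22a follows in part from how they were chosen, and the usual rate of about 1 in 20 by chance does not apply. It was high in Esm1 (6.73), Fads1 (16.02), Fads2 (18.53) and Ctsl (15.37), a lysosomal protease. It was low in Cyp2c37 (12.55), Nxpe2 (8.94), Slc22a7 (5.48), Sdr9c7 (11.09), Slco1a1 (14.85), Saa4 (15.95), Cd163 (4.74) and Usp2 (6.47). For the first 11 of these genes the side is that of the called difference, and Usp2 was not called.

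The difference between the classes varied with time, by the interaction test in limma, for Tgtp2 (adjusted p = 0.00924) and Usp2 (adjusted p = 0.0157). Among the 11 arrays Tgtp2 was high in ZT14b and ZT14d, and Usp2 was low in ZT6b and ZT6c against ZT6a.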

How the results depend on the processing

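Of the 466 called features 3 changed sign at ZT6 alone and 0 in any other alternative of the fit, where 387 of them were still in the fit of features above the median level. Each alternative used arrays that also made the calls, so the kept signs follow in part from that choice. The count of calls (higher and lower) was 222 (152 and 70) without ZT22, 61 (30 and 31) without ZT14, 355 (251 and 104) without ZT6, 270 (174 and 96) with the letter as replicate block, 301 (192 and 109) with no time covariate, 182 (115 and 67) at a threshold of 0.01, 729 (450 and 279) with all 22 arrays and 663 (426 and 237) with a trend and robust prior. Omitting 1 array gave 265 to 479 calls, 165 to 321 higher and 85 to 158 lower. ZT6 alone gave 104 calls (46 and 58), ZT14 alone 445 (339 and 106) and ZT22 alone 48 (30 and 18). The share of higher calls was 67.2%, against 49.2% without ZT14, 44.2% at ZT6 alone and 60.7% after quantile normalization. After removal of the time means, same-letter arrays of different times had a median correlation of -0.02, between -0.24 and 0.23. For different letters the median was 0.03, between -0.24 and 0.25, so the letters showed no sign of pairing the arrays. The interaction was called for 5 features without ZT6, 19 with a trend and robust prior, 1 with the letter as replicate block, 1 at a threshold of 0.01 and 0 to 10 without 1 array. Features set apart numbered 3782 without ZT6 and 165 with a gap of at least 0.5.

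Genes that were not called turned sign in places. Tff2 was 0.10 at ZT6 alone. Tgtp2 was -0.22 without ZT14 and -0.53 at ZT6. Usp2 was 0.12 without ZT6 and without ZT6a, 0.74 at ZT14, and between -1.33 and 0.12 without 1 array. Iigp1 was -0.27 without ZT14 and -0.79 at ZT22. Igtp was -0.64 without ZT14, -0.93 at ZT6 and -0.39 at ZT22. Nrg4 was -1.07 at ZT6. With a trend and robust prior Cib3, Cxcl9, Mmp12, Socs2, Cdkn1a, Nnmt, Tsc22d1, Obp2a and Rgs16 lost their calls (adjusted p 0.0516 to 0.139). The cause of these shifts was not tested. Of the 68 genes called among 80 checked, 50 were called in every omission of 1 array. Small classes limit what differences under 2-fold can show.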

Other observations

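Some genes of antigen presentation and of myeloid cells were also called higher in the Tff3-high livers. These groups were put together after the calls were seen, so a high share of called members follows in part from that choice. Their values are a description. Among 9 genes of MHC class II and antigen processing, 5 were called higher and 0 lower, against 1.43% higher and 0.677% lower over all named genes. H2-Ab1 (1.01 ± 0.28), H2-DMb2, Ciita and H2-DMa, which was lower at ZT6 (-0.76), were not called. H2-Eb1, a class II beta chain, had a range of 7.32 to 9.71 in Tff3-high livers, against 6.81 to 7.59 in Tff3-low livers, and H2-Aa, an alpha chain, 8.13 to 10.01 in Tff3-high livers, against 7.19 to 8.11 in Tff3-low livers. Ctss, the protease that processes the invariant chain, ran from 8.32 to 10.07 in Tff3-high livers and from 7.51 to 8.13 in Tff3-low livers. Among 12 myeloid genes 7 were called higher and 0 lower. The 11 markers of Kupffer cells and macrophages had 0 called higher and 1 lower (Cd163), with a list median of 0.32, and 1 was set apart in each direction. Of 10 markers of neutrophils and monocytes 0 were called. Beside 1.43% higher and 0.677% lower over all named genes, counts of 0 in such short lists say little. Mpeg1, a pore-forming protein of macrophages, ran from 8 to 9.82 in Tff3-high livers and from 6.43 to 7.51 in Tff3-low livers, and Spi1, the factor PU.1, from 9.31 to 11.01 in Tff3-high livers and from 8.30 to 9.27 in Tff3-low livers. Mpeg1 differed by 2.95 at ZT14, 0.83 at ZT6 and 0.72 at ZT22, while Ifi30, a lysosomal thiol reductase, differed by 1.86, 2.22 and 0.01 at the same times. Ptprc, a marker of all leukocytes, was not called (0.70 ± 0.21), nor were Itgam, Itgax, Cx3cr1 and Tyrobp. The part of cell numbers in these values was not tested.

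A second set, of 10 Id genes and BMP targets also put together after the calls were seen, had 4 called higher and 0 lower. The shares over all named genes were 1.43% and 0.677%, but the later choice of such sets raises theirs in part. Id1, Id2, Id3 and Smad7, which BMP and TGF-beta signals induce, were called higher, by 2.78, 0.90, 1.69 and 1.51, while Smad6 (0.19 ± 0.20), Hamp (0.43 ± 0.16), Id4 (0.64), Smad9 (0.85), Bambi (0.66) and Atoh8 (0.46) were not called. Among 13 carboxylesterases, which hydrolyse drugs and esters, 3 were called lower and 0 higher. Ces2b ran from 5.71 to 6.98 in Tff3-high livers and from 7.12 to 8.89 in Tff3-low livers, and Ces2e, its neighbour, from 11.09 to 12.27 in Tff3-high livers and from 12.38 to 13.43 in Tff3-low livers. Among 8 zinc finger genes named from Zfp600 to Zfp992, 5 were called lower and 0 higher, with a median difference of -1.06.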
